A study of Homo sapiens with 24 samples.

Results

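The 10 genes described here encode enzymes that modify and join collagen chains: the 5 lysyl oxidases LOX, LOXL1, LOXL2, LOXL3 and LOXL4, the 3 lysyl hydroxylases PLOD1, PLOD2 and PLOD3, and P4HA1 and P4HA2, which encode catalytic alpha subunits of prolyl 4-hydroxylase. They were chosen by name, and each gene's deposited transcript values were summed. Of 34834 genes with summed transcripts, 17453 had 10 or more estimated counts in 3 or more libraries and were tested, and all 10 enzyme genes were among them. The RNA came from SK-MES-1, an established line of human squamous cell lung carcinoma, and was sequenced to follow mRNA expression after stimulation with TGFβ1. There were 12 libraries from untreated cells and 12 from cells given 2 ng/ml TGFβ1, with 3 biological replicates for each arm and time (0, 8, 24 and 48 h). Cells of both arms had been serum-starved for 3 h before the time course began, so the controls carry the starvation too. The study's methods name growth factor-depleted medium for TGFβ1 stimulation as well, and state no return to serum for these cells. The 0 h libraries of the TGFβ1 arm had no time to respond and serve as a check on the arms. All cells belong to 1 cultured line.

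Collagen is modified inside the cell and joined outside it. Prolyl 4-hydroxylases act on proline residues, which stabilises the triple helix, and lysyl hydroxylases act on lysine residues, which prepares them for stable crosslinks. The lysyl oxidases are secreted copper enzymes that oxidise lysine and hydroxylysine side chains, after which neighbouring chains of collagen or elastin crosslink. TGFβ is a well-known inducer of collagen production in connective tissue, and several of these enzymes are also known to respond to low oxygen.

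Estimated counts totalled 46613589 to 77964234 per library. The replicate 2 libraries of 0 h and 24 h stood apart from the other replicates in both arms, with mean correlations to their group of 0.9875 to 0.9927. The TGFβ target genes SMAD7 and PMEPA1 were both higher in the TGFβ1 arm, by 2.27 and 4.11 on the log2 scale averaged over 8, 24 and 48 h. Of 9 squamous and epithelial markers, 6 averaged at least 1 TPM (a transcript abundance scaled by length and library), KRT8 and KRT18 being the most abundant at means of 567 and 586 TPM. KRT5, KRT6A and KRT14, keratins that define squamous epithelium, stayed below 1 TPM in every library, whereas TP63 was measured at 7.69 to 37.5 TPM. KRT17, another keratin of the list, ranged from 0.29 to 71.4 TPM. At 48 h it averaged 5.41 TPM in untreated cells and 70.5 TPM with TGFβ1. The summed level of the 7 fibroblast markers was 207 to 316 TPM in untreated cells and 195 to 2403 TPM in the TGFβ1 arm. It was carried by COL1A1, while DCN and LUM averaged 12.2 and 23.3 TPM in untreated cells at 48 h against 1.47 and 9.19 TPM with TGFβ1. PDGFRB went the other way, at 5.28 TPM in untreated cells and 21.1 TPM with TGFβ1 at 48 h. COL3A1 averaged 8.41 and 6.97 TPM there, THY1 6.28 and 5.21 TPM, and COL1A2 did not exceed 0.221 TPM in any library. The 3 endothelial markers summed to 0.662 to 4.54 TPM and the 3 leukocyte markers to 9.94 to 42.6 TPM, most of the latter from CD68. In bulk RNA, fewer cells of a type and less RNA per cell cannot be told apart. The deposited names carry a code, whose meaning is not stated, that is shared by 0 and 8 h and by 24 and 48 h of an arm and differs between the arms, so at 24 and 48 h an effect of that code and of the arm cannot be told apart. At 0 h, where the codes already differ, 0 genes were called, and the code cancels in the change of the arm difference from 0 h to 8 h given further on. Within an arm the code also differs between 0 h and both 24 and 48 h. Changes over these times within an arm cannot be told apart from an effect of the code. The same holds for the change of the arm difference from 8 h to 24 h.

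LOX and LOXL4 had the largest mean differences between the arms among the 10 genes, higher with TGFβ1, and LOXL2, P4HA2 and LOXL1 followed, and the lysyl hydroxylases and P4HA1 differed little between the arms. In the limma voom F-test over 8, 24 and 48 h, 6 of the 10 genes passed at an adjusted p below 0.01, 5 of them higher and LOXL3 lower on average. Among all tested genes 42.5% passed, 21% higher and 21.5% lower. The median of the mean log2 differences was 0.35 for the 10 genes and -0.02 for all tested genes. At 0 h none of the 10 passed, none had an unadjusted p below 0.05, and the share of all genes passing was 0%. At 8 h LOX, LOXL4 and P4HA2 were higher and LOXL3 was lower, which makes 4 of 10 beside 16.4% of all genes (9.12% higher, 7.26% lower). At 24 h LOX, LOXL2, LOXL4 and P4HA2 were higher, 4 of 10 beside 29.3% of all genes (15.4% higher). At 48 h LOX, LOXL1, LOXL2, LOXL4, PLOD1 and P4HA2 were higher, 6 of 10 beside 32.6% of all genes (16.1% higher). The next plots give every library's level and each difference between the arms.

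**Figure D1:**
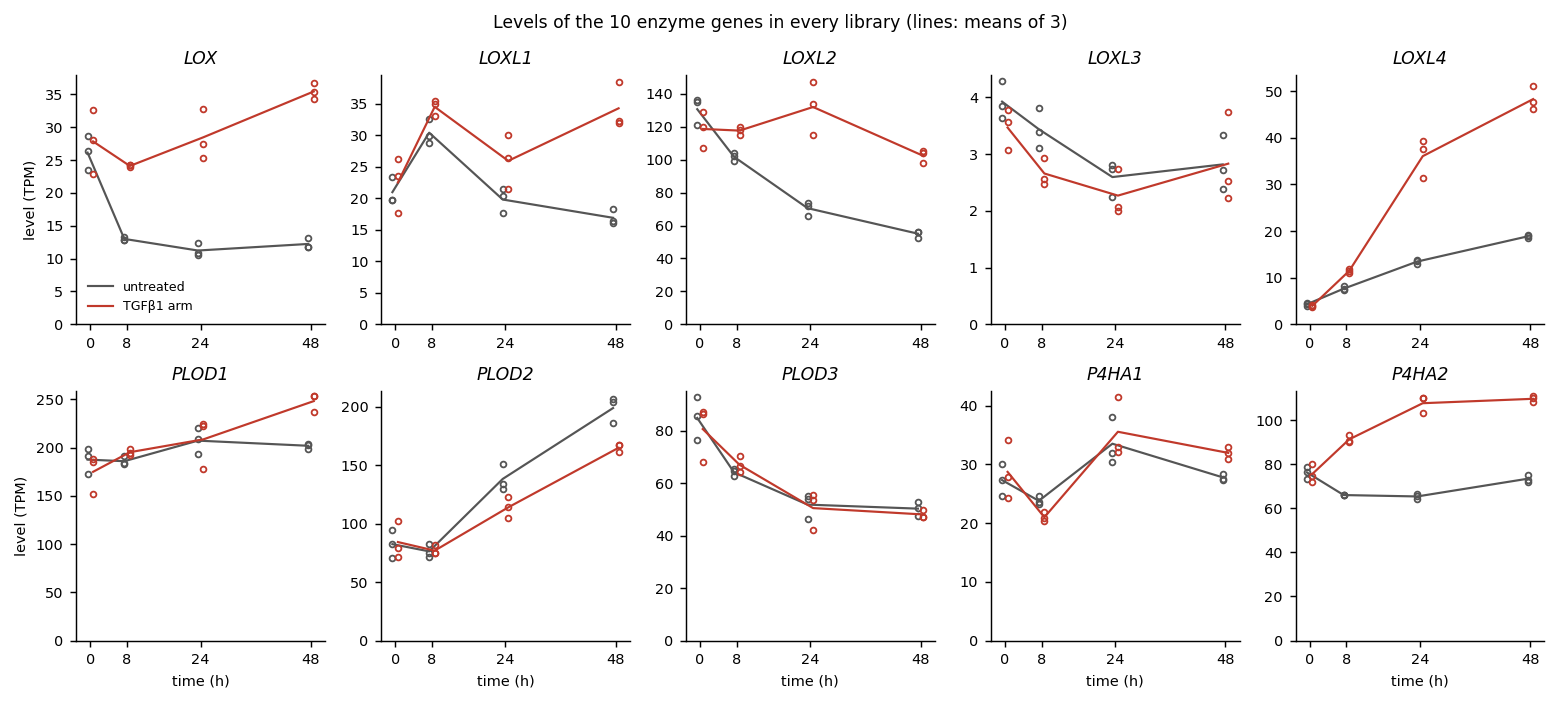
Level of each of the 10 genes in TPM (vertical axis, from 0) against time in hours, untreated in grey and the TGFβ1 arm in red. Circles are libraries and lines join the means of 3. The LOX libraries overlap at 0 h and are separate at 8, 24 and 48 h, and LOXL4 reaches 46.1 to 51.2 TPM with TGFβ1 at 48 h against 18.6 to 19.1 TPM in untreated cells.

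**Figure D2:**
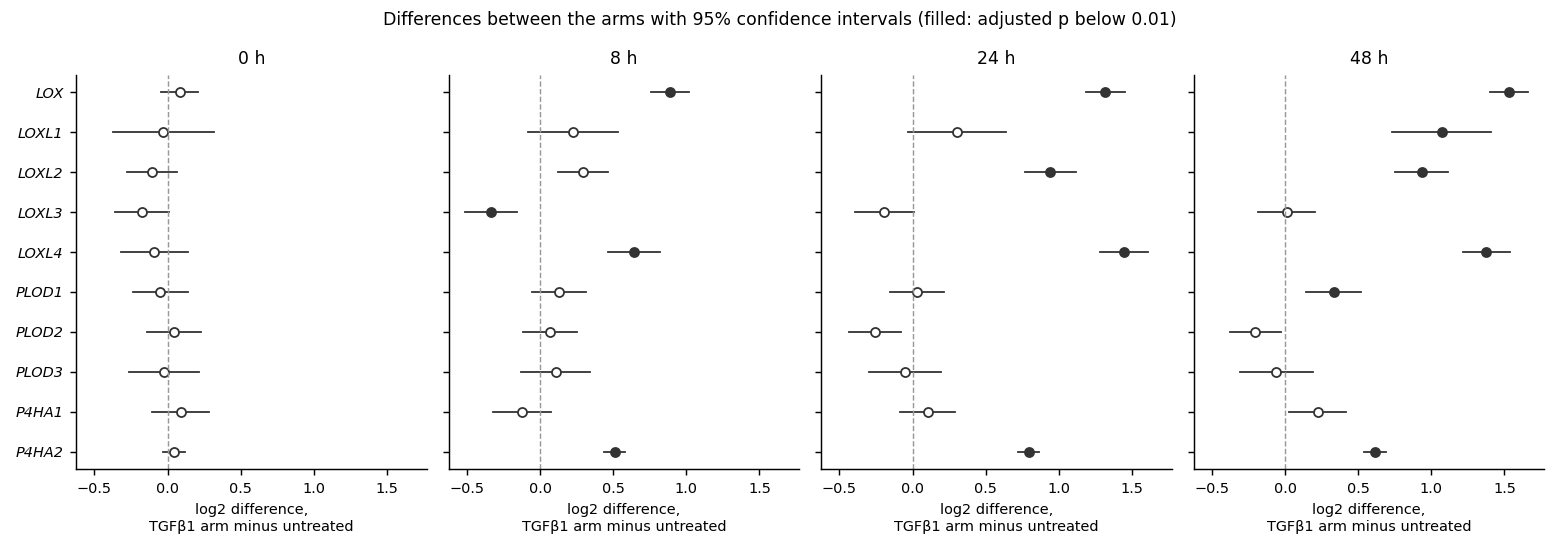
Log2 difference between the TGFβ1 arm and untreated cells (horizontal axis) for each gene at 0, 8, 24 and 48 h, from limma voom. Points are estimates from 3 libraries per arm, lines are 95% confidence intervals, and filled points passed an adjusted p below 0.01. No gene passed at 0 h, and LOX differed by 0.89, 1.32 and 1.53 at the later times.

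LOX encodes the founding member of the lysyl oxidase family (GRCh38 chr5:122063195-122078413, minus strand). In untreated cells it was measured at 23.5, 28.6 and 26.3 TPM at 0 h, at 12.8, 13.3 and 12.9 TPM at 8 h, and at 11.8, 11.8 and 13.1 TPM at 48 h. With TGFβ1 it was measured at 22.8, 32.6 and 28.1 TPM at 0 h, at 24.2, 23.9 and 24.2 TPM at 8 h, and at 35.3, 34.3 and 36.7 TPM at 48 h. The 0 h libraries of the arms overlap, and from 8 h onwards all TGFβ1 libraries lie above all untreated ones. The difference was 1.85-fold at 8 h (log2 0.89, 95% interval 0.76 to 1.02, adjusted p = 5.1e-10), 2.49-fold at 24 h and 2.89-fold at 48 h (adjusted p = 2.4e-14). Most of this separation lay in the untreated arm, where LOX fell by 49.1% between 0 h and 8 h (adjusted p = 1.8e-10) and stood 55.1% lower at 48 h. In the TGFβ1 arm the change from 0 h was -0.17 on the log2 scale at 8 h, which did not pass (adjusted p = 0.031), and LOX was 1.23-fold above its 0 h level at 48 h (adjusted p = 0.00021, or 0.011 with length-scaled counts). Exons of LOX overlap those of SRFBP1 on the other strand, which averaged 6.68 TPM.

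LOXL4, another secreted lysyl oxidase (chr10:98247690-98268194, minus strand), had the largest rise over time. Its untreated libraries held 4.63, 3.97 and 4.32 TPM at 0 h, 13.9, 12.9 and 13.6 TPM at 24 h and 18.9, 19.1 and 18.6 TPM at 48 h. Its TGFβ1 libraries held 4.23, 3.72 and 4.0 TPM at 0 h, 39.3, 31.4 and 37.5 TPM at 24 h and 51.2, 47.6 and 46.1 TPM at 48 h. LOXL4 therefore rose in both arms, and the TGFβ1 libraries were the higher ones at every later time. From 0 h to 48 h the gene rose 4.10-fold in untreated cells (adjusted p = 7.8e-14) and 11.3-fold in the TGFβ1 arm (adjusted p = 7e-18). Between the arms it differed 1.56-fold at 8 h, 2.73-fold at 24 h (log2 1.45, 95% interval 1.28 to 1.61) and 2.60-fold at 48 h. A single transcript was deposited for this gene, so its sum does not depend on how reads were divided among transcripts.

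The sequences just upstream of the annotated starts of LOX and LOXL4 are shown because these genes had the largest differences between the arms. They come from RefSeq's promoter windows on GRCh38.p14, in which 9 of the 10 genes had an entry, and run 5′ to 3′ on the minus strand. For LOX only the 96 bases upstream of every annotated exon are printed (chr5:122078414-122078509), and for LOXL4 the full 250 bases before the start (chr10:98268195-98268444). Capitals mark CAGAC or its reverse complement GTCTG, the core that SMAD proteins are known to bind, and ACGTG or CACGT, the core of hypoxia response elements.
LOX: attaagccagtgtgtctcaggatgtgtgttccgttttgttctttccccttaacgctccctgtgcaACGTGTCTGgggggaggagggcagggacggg
LOXL4: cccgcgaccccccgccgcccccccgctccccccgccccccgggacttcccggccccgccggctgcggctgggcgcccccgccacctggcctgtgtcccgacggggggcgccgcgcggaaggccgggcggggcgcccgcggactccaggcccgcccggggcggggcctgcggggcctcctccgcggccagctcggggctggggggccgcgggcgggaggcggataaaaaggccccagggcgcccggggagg
In the LOX stretch 1 match of each core lies side by side and shares a base, while the LOXL4 stretch holds neither. Over both strands of the 250-base windows, the SMAD core was present in a window of 5 of the 9 genes and in 38% of 35116 RefSeq windows, and the hypoxia core in a window of 3 of the 9 and in 18.5% of all windows. The 9 genes had 12 windows, with more than 1 for LOX and LOXL3. A count by gene and a share by window are therefore unlike measures. The matches are of letters in this window only.

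LOXL2, a secreted lysyl oxidase with collagen IV among its known substrates (chr8:23296897-23425328, minus strand), was the most abundant of the family on the TPM scale. In untreated cells it was measured at 135, 121 and 136 TPM at 0 h, 74.0, 65.8 and 71.9 TPM at 24 h and 56.3, 56.3 and 52.6 TPM at 48 h. The TGFβ1 libraries held 120, 107 and 129 TPM at 0 h, 147, 115 and 134 TPM at 24 h and 105, 104 and 97.9 TPM at 48 h. As with LOX, the libraries overlap at 0 h and the untreated ones lie lower afterwards. LOXL2 fell by 60.8% in untreated cells by 48 h (adjusted p = 1.1e-11). In the TGFβ1 arm it stood 19.4% below 0 h at 48 h (adjusted p = 0.0026), a direction that turned to 0.24 on the log2 scale when libraries were scaled to 4 reference genes. The arms differed 1.92-fold at 24 h (log2 0.94, 95% interval 0.77 to 1.12) and 1.91-fold at 48 h. At 8 h the difference of 0.29 missed the threshold in limma voom (adjusted p = 0.012) and passed in DESeq2 (adjusted p = 0.0045). Exons of LOXL2 overlap those of ENTPD4 on the same strand, which averaged 32.7 TPM. Whether reads of ENTPD4 entered the LOXL2 value was not tested.

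LOXL1, known for its part in elastic fibre assembly (chr15:73925989-73952137, plus strand), had its largest difference at 48 h. There it was measured at 18.3, 16.0 and 16.4 TPM in untreated cells and at 32.3, 38.5 and 32.0 TPM with TGFβ1, so that every TGFβ1 library lay above every untreated one. The 48 h difference was 2.10-fold (log2 1.07, 95% interval 0.73 to 1.41, adjusted p = 1.4e-05). At 8 h the libraries did not overlap, at 28.7 to 32.6 TPM against 33.1 to 35.5 TPM, but the log2 difference of 0.23 did not pass (adjusted p = 0.32), although it did when only the 8 h libraries were fitted (adjusted p = 0.0012). At 24 h the libraries overlapped, at 17.6 to 21.5 TPM against 21.4 to 30.0 TPM, and the log2 difference of 0.30 did not pass (adjusted p = 0.15). LOXL1 also rose 1.67-fold from 0 h to 8 h in the TGFβ1 arm (adjusted p = 0.00061), and its rise of 1.40-fold in untreated cells did not pass (adjusted p = 0.021).

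LOXL3, a scarce member of the family here (chr2:74532258-74555690, minus strand), had 127 to 266 estimated counts per library. At 8 h it was measured at 3.11, 3.82 and 3.39 TPM in untreated cells and at 2.94, 2.57 and 2.47 TPM with TGFβ1, and the libraries did not overlap. It was lower by 0.34 on the log2 scale (adjusted p = 0.0062), a call that was lost in edgeR (adjusted p = 0.011) and in DESeq2 (adjusted p = 0.012). It was also lost without any 1 of 5 of the 6 libraries of 8 h, all but TGFβ1 replicate 1 (adjusted p = 0.014 to 0.062). Its F-test call was lost in edgeR (adjusted p = 0.012) and in DESeq2's test over the same times (adjusted p = 0.016). Both calls were lost in limma on log2(TPM + 1) (adjusted p = 0.14 at 8 h, 0.23 in the F-test) and with length-scaled counts (0.20 and 0.33). As a change from 0 h the 8 h value was -0.16 (adjusted p = 0.52). The F-test call was lost in 12 of 24 fits without 1 library. Both calls held with library totals and with a replicate block. At 48 h the log2 difference was 0.01 (95% interval -0.19 to 0.21), and the libraries overlapped. Exons of LOXL3 overlap those of DOK1 and HTRA2 on the other strand, which averaged 32.0 and 42.2 TPM, and whether their reads entered its value was not tested.

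Summed over the 5 genes, the lysyl oxidases were lower with time in untreated cells, with 186 ± 7.3 TPM at 0 h and 106 ± 2.5 TPM at 48 h (SD, n = 3). In the TGFβ1 arm the sum went from 177 ± 11.7 TPM to 223 ± 6.9 TPM (SD, n = 3). The ratio of the arms' means went from 0.952 (0 h) through 1.22 (8 h) and 1.91 (24 h) to 2.10 (48 h), given here as a description with no test. The make-up also differed at 48 h: LOXL2 held 52.0 ± 0.92% of the family's TPM in untreated cells and 45.8 ± 0.35% with TGFβ1, LOX 11.6 ± 0.95% and 15.9 ± 1.0%, and LOXL4 17.8 ± 0.30% and 21.7 ± 0.75% (SD, n = 3).

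**Figure D3:**
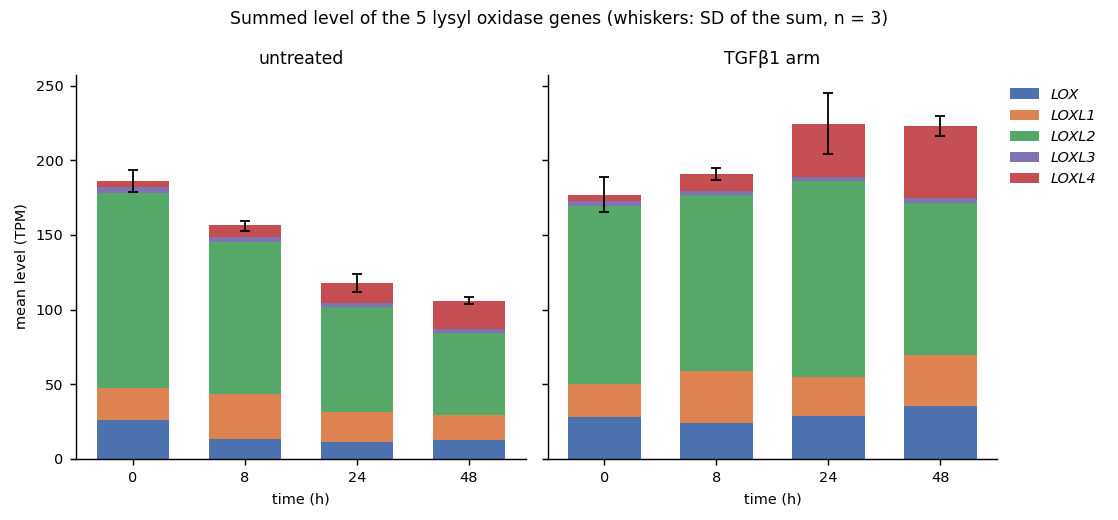
Mean level in TPM of the 5 lysyl oxidase genes, stacked, at each time in untreated cells (left) and the TGFβ1 arm (right). Colours are genes and whiskers are the SD of the summed level over 3 libraries. LOXL2 makes up the largest part of each bar, and the 48 h sums are 106 TPM and 223 TPM.

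Of the lysyl hydroxylases, PLOD1 had the highest mean TPM of the 10 genes in every group, although its libraries overlapped with those of PLOD2 in untreated cells at 48 h (chr1:11934205-11975538, plus strand). It encodes the enzyme that acts on lysines of the collagen helix. At 48 h it was measured at 203, 199 and 204 TPM in untreated cells and at 254, 254 and 237 TPM with TGFβ1, with no overlap. It was 1.26-fold higher (log2 0.33, 95% interval 0.15 to 0.52, adjusted p = 0.0046), and this call was lost without any 1 of 5 of the 6 libraries of 48 h, all but TGFβ1 replicate 3 (adjusted p = 0.013 to 0.019). The call was also lost with library totals (0.25, adjusted p = 0.02), with upper-quartile factors (0.29, adjusted p = 0.012) and as a change from 0 h (0.38, adjusted p = 0.028). It held in edgeR (adjusted p = 0.0046) and in DESeq2 (adjusted p = 0.0014). In untreated cells PLOD1 did not pass at any time against 0 h.

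PLOD2 (chr3:146035139-146163725, minus strand) encodes the enzyme that hydroxylates lysines in the telopeptides at the ends of collagen chains. In untreated cells it was measured at 70.3, 94.8 and 82.4 TPM at 0 h and at 186, 204 and 207 TPM at 48 h. The TGFβ1 libraries held 71.9, 102 and 79 TPM at 0 h and 167, 167 and 161 TPM at 48 h. PLOD2 rose in both arms by 48 h, 2.19-fold in untreated cells (adjusted p = 2.3e-10) and 1.85-fold with TGFβ1 (adjusted p = 1.1e-08). The TGFβ1 libraries lay below the untreated ones at 24 and 48 h, but the log2 differences of -0.26 and -0.20 did not pass (adjusted p = 0.020 and 0.057), and scaling to 4 reference genes turned both to 0.09 and 0.15. Both passed with library totals (-0.35 and -0.28, adjusted p = 0.0026 and 0.0098), and the 48 h difference passed when only the 48 h libraries were fitted (adjusted p = 0.0036).

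PLOD2 is known to be spliced with or without an alternative exon, and the transcripts on either side of this choice were quantified separately. The exon is number 14 of the 20 exons of the canonical transcript PLOD2-201, lies within the coding sequence and is 63 bases long. It is shown with 20 intron bases on each side because transcripts with and without it changed by different amounts. The sequence was read from GRCh38 (chr3:146077842-146077944, minus strand, 5′ to 3′), with exon bases in capitals and intron bases in lower case.
PLOD2 exon: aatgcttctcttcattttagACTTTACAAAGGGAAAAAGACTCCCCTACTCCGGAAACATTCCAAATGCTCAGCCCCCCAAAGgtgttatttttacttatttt
Of the 10 deposited PLOD2 transcripts, 5 hold the exon, 2 skip it and 3 do not span it, and those that span it held 98.6 to 99.9% of the gene's TPM. The 2 that skip it are PLOD2-202 and PLOD2-205, a short transcript of 723 bases. They held 16.4 ± 3.0% and 12.2 ± 2.5% of the gene's TPM in untreated cells at 0 h (SD, n = 3). The PLOD2-205 share was 8.29, 18.1 and 12.5% in the TGFβ1 replicates of 48 h. Transcripts with the exon made up 71.2 ± 2.6% of the TPM that spans it in untreated cells at 0 h and 58.8 ± 2.2% at 48 h. In the TGFβ1 arm they made up 70.4 ± 4.0% at 0 h and 58.2 ± 3.4% at 48 h (SD, n = 3 in each group). In both arms every 48 h library lay below every 0 h library. These times also differ in the code of the deposited names. At 24 h the shares were 66.0, 72.1 and 70.0% in untreated cells and 63.0, 62.9 and 61.3% with TGFβ1, which do not overlap. The level of transcripts with the exon went from 58.4 ± 8.3 to 116 ± 4.9 TPM in untreated cells and that of transcripts without it from 23.6 ± 4.6 to 81.7 ± 8.4 TPM. These shares rest on kallisto's division of reads among similar transcripts and are given with no test.

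**Figure D4:**
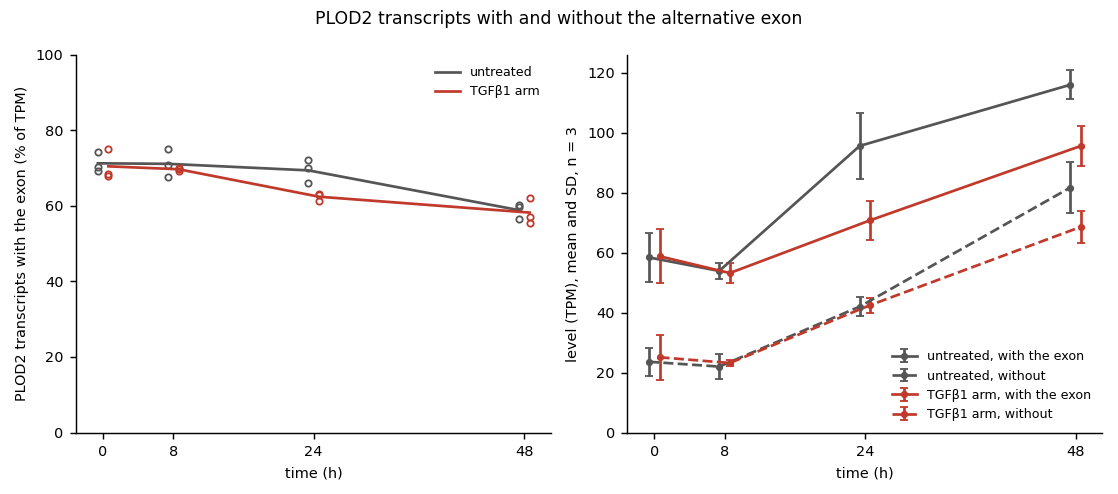
Left, share of PLOD2 TPM from transcripts with the alternative exon (percent of transcripts that span it, axis from 0 to 100) in each library against time in hours, with lines joining the means of 3. Right, level in TPM of transcripts with the exon (solid) and without it (dashed), mean and SD of 3 libraries. Shares lie near 70% at 0 h and below 63% in every 48 h library, while both transcript groups are higher at 48 h than at 0 h.

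PLOD3, whose product also carries glycosyltransferase activity (chr7:101205977-101218420, minus strand), fell in both arms. Untreated cells held 92.8, 76.5 and 85.5 TPM of it when the time course began and 53.0, 47.6 and 50.4 TPM at 48 h. Cells of the TGFβ1 arm held 86.5, 68.3 and 87.3 TPM and later 50, 47.2 and 47.1 TPM. PLOD3 fell by 42.3% in untreated cells (adjusted p = 4.5e-06) and fell by 43.6% with TGFβ1 (adjusted p = 2.7e-06), and the latter missed the threshold when scaled to 4 reference genes (adjusted p = 0.011). Between the arms the difference at 48 h was -0.06 on the log2 scale, with a 95% interval of -0.31 to 0.19. Exons of PLOD3 overlap those of ZNHIT1 on the other strand, which averaged 53.2 TPM. Over the 3 genes the lysyl hydroxylases summed to 451 ± 9.5 TPM in untreated cells and 462 ± 14.4 TPM with TGFβ1 at 48 h (SD, n = 3). PLOD2 held 44 ± 1.8% of this sum in untreated cells and 35.8 ± 0.32% with TGFβ1, and PLOD1 44.8 ± 1.0% and 53.8 ± 0.43%.

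Of the prolyl 4-hydroxylase subunits, P4HA2 (chr5:132190147-132295315, minus strand) had the smallest spread between replicates of the 10 genes. It was measured at 76.5, 73.4 and 78.9 TPM in untreated cells at 0 h, at 66.2, 65.9 and 65.9 TPM at 8 h and at 73.0, 75.1 and 72.1 TPM at 48 h. With TGFβ1 it was measured at 71.9, 74.7 and 80.2 TPM at 0 h, at 93.1, 90.5 and 90.2 TPM at 8 h and at 110, 108 and 111 TPM at 48 h. The arms overlap at 0 h and are separate at each later time. P4HA2 was 1.42-fold higher at 8 h (log2 0.51, 95% interval 0.44 to 0.58, adjusted p = 3.4e-10), 1.73-fold at 24 h and 1.53-fold at 48 h. Within the arms, it rose 1.32-fold with TGFβ1 by 48 h (adjusted p = 1.7e-09). It was lower by 0.17 on the log2 scale in untreated cells (adjusted p = 0.00034), a call that was lost on log2(TPM + 1) (adjusted p = 0.25) and whose direction turned when scaled to 4 reference genes (0.03).

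P4HA1, the other alpha subunit (chr10:73007217-73096974, minus strand), was measured at 27.4, 27.6 and 28.4 TPM in untreated cells and at 31.9, 31.0 and 33.0 TPM with TGFβ1 at 48 h. The 48 h libraries do not overlap, yet the log2 difference of 0.22 did not pass (95% interval 0.03 to 0.42, adjusted p = 0.060). It passed when only the 48 h libraries were fitted (adjusted p = 0.00028). At 8 h the P4HA1 libraries with TGFβ1 lay below the untreated ones, at 20.3 to 21.9 TPM against 23.2 to 24.6 TPM (log2 -0.12, adjusted p = 0.40). P4HA2 held 72.5 ± 0.73% of the summed TPM of both subunits in untreated cells at 48 h and 77.4 ± 0.35% with TGFβ1 (SD, n = 3).

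Against their own 0 h level, 7 of the 10 genes changed in untreated cells at 1 or more later times, beside 64.9% of all tested genes, and 10 of 10 changed in the TGFβ1 arm, beside 65.8%. With a replicate block these counts were 9 and 10, with no share over all genes counted for that fit. Whether the counts differ between the arms was not tested. At 48 h in untreated cells, LOXL4 and PLOD2 were higher and LOX, LOXL2, LOXL3, PLOD3 and P4HA2 lower. At 48 h in the TGFβ1 arm, LOX, LOXL1, LOXL4, PLOD1, PLOD2 and P4HA2 were higher and LOXL2 and PLOD3 lower. The LOXL3 call in untreated cells was lost without untreated 0 h replicate 1 or 3 or 48 h replicate 3 (adjusted p = 0.012 to 0.022). The LOXL2 call with TGFβ1 was lost without TGFβ1 0 h replicate 1 or 3 or 48 h replicate 3 (adjusted p = 0.015 to 0.017), and the LOXL1 call without TGFβ1 0 h replicate 2 (0.42, adjusted p = 0.011). LOX and P4HA2 thus passed in opposite directions in the arms, and LOXL4, PLOD2, PLOD3 and LOXL2 passed in the same direction in both. Within each arm the code of the deposited names also differs between 0 h and 48 h.

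**Figure D5:**
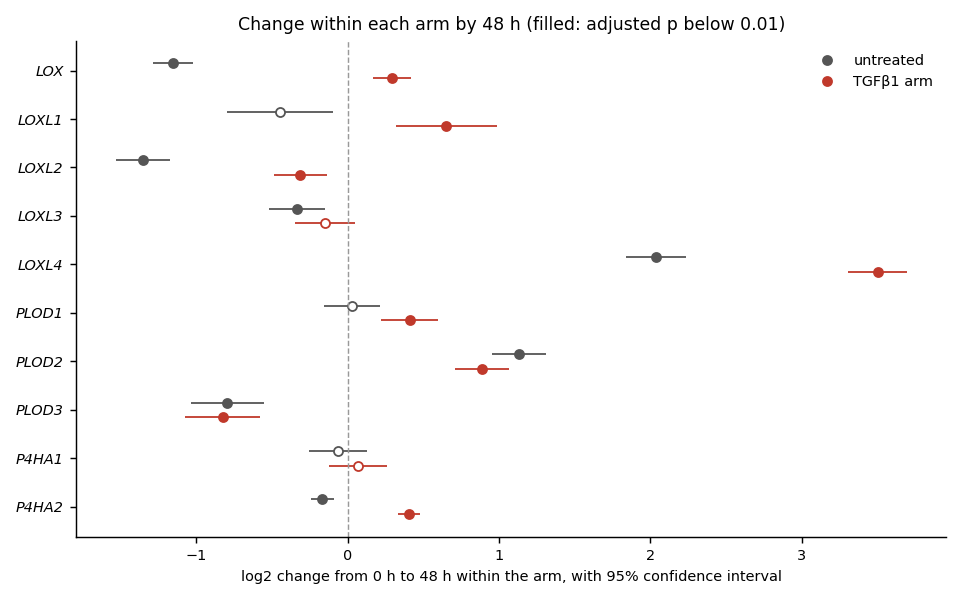
Log2 change from 0 h to 48 h (horizontal axis) within untreated cells (grey) and within the TGFβ1 arm (red), from limma voom with 3 libraries per group. Lines are 95% confidence intervals and filled points passed an adjusted p below 0.01. LOX changed by -1.15 in untreated cells and 0.29 in the TGFβ1 arm, and LOXL4 by 2.03 and 3.5.

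The difference between the arms was also compared between times. From 0 h to 8 h it increased for 3 of the 10 genes, LOX by 0.81, LOXL4 by 0.73 and P4HA2 by 0.47 on the log2 scale, beside a change in 7.88% of all genes. From 8 h to 24 h it increased for 4, LOXL4 by 0.81, LOXL2 by 0.65, LOX by 0.43 and P4HA2 by 0.28, beside 6.69%. An effect of the code in the deposited names cannot be told apart from this change. From 24 h to 48 h none of the 10 passed, beside 9.11%, although 4 had an unadjusted p below 0.05 and DESeq2 called 1. LOXL1 was nearest to the threshold in that interval among the increases, with a change of 0.77 (adjusted p = 0.025), and the P4HA2 difference changed by -0.18 (adjusted p = 0.017).

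An exact two-sided permutation test of library labels within 8, 24 and 48 h was run on log2(TPM + 1) for each gene. The exact p was 0.00025, the smallest this test can give, for LOX, LOXL2, LOXL4 and P4HA2, each higher with TGFβ1 at 3 of 3 times by 1.19, 0.66, 1.06 and 0.58 on average. For LOXL1 the exact p was 0.0005 (0.51, higher at 3 of 3 times), for PLOD1 0.0343 (0.12, higher at 3 of 3) and for PLOD2 0.00625 (-0.18, higher at 1 of 3). For LOXL3, P4HA1 and PLOD3 the exact p was 0.105, 0.585 and 0.767. These are the p-values of 10 tests before any correction.

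By TPM, the order of the genes at 0 h in untreated cells began with PLOD1 at 188 TPM and LOXL2 at 131 TPM. PLOD3, PLOD2 and P4HA2 followed at 84.9, 82.5 and 76.3 TPM with libraries that overlap between neighbours, then P4HA1 at 27.3 and LOX at 26.1 TPM, which also overlap, and LOXL1 at 21.0 TPM. LOXL4 and LOXL3 came last at 4.31 and 3.93 TPM, again with overlap. At 48 h in the TGFβ1 arm the order was PLOD1 at 248 TPM, PLOD2 at 165, P4HA2 at 109 and LOXL2 at 102 TPM, each apart from the next. LOXL4 at 48.3 and PLOD3 at 48.1 TPM overlapped, as did LOX at 35.4, LOXL1 at 34.3 and P4HA1 at 31.9 TPM with their neighbours, and LOXL3 was last at 2.83 TPM. LOXL4 thus ranked above LOX, LOXL1 and P4HA1 in this arm, having been below them at 0 h.

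The transcripts behind the sums differed in how evenly they were shared. LOXL2-201 held 88.2 ± 0.84% of the gene's TPM in untreated cells at 0 h, PLOD1-201 84.2 ± 0.89% and PLOD3-201 79.1 ± 1.2% (SD, n = 3). LOX-201 and LOX-202 held the largest parts of LOX at 48 h, 61.0 ± 1.5% and 18.5 ± 2.1% in untreated cells and 59.2 ± 4.7% and 28.8 ± 1.1% with TGFβ1. LOX-205 held 15.1 ± 4.6% and 9.44 ± 6.2% there. The LOX-202 share was not stable, at 36.4, 6.07 and 32.0% in the untreated 24 h replicates. LOXL1 was divided between LOXL1-201 and LOXL1-204, a transcript with a retained intron, at 56.7 ± 5.2% and 33.4 ± 5.1% in untreated cells at 0 h. P4HA1 was divided between P4HA1-202 and P4HA1-203, at 50.3 ± 3.0% and 39.9 ± 1.5% in untreated cells at 48 h. The largest part of LOXL3 in untreated cells at 0 h was LOXL3-208, also with a retained intron, at 28.1 ± 9.0%. The canonical LOXL3 transcript did not reach 10% of the gene's TPM in any group. For LOXL3 the shares varied by up to 13 percentage points (SD) between replicates at 0 h, and that of LOXL3-210 by 21 with TGFβ1 at 8 h.

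Other genes of the pathway were counted in the same F-test, in which 42.5% of all tested genes passed, 21% higher and 21.5% lower. These shares stand beside the counts of this list and of each list that follows. Of 16 genes for further collagen modification and folding, 9 were higher with TGFβ1, 2 were lower and 5 did not pass, with a median mean log2 difference of 0.15. P4HA3, another alpha subunit of prolyl 4-hydroxylase, went from 7.18 to 2.13 TPM between 0 h and 48 h in untreated cells and from 6.52 to 11.3 TPM with TGFβ1, a mean log2 difference of 1.89 (adjusted p = 1.5e-16). P4HB, the beta subunit and the most abundant gene of the list at 1082 TPM, differed by 0.15 (adjusted p = 0.031). PPIB, a collagen-folding prolyl isomerase, was higher by 0.16 (adjusted p = 1.9e-05). The 2 lower genes, named after their values were seen, were COLGALT2, a collagen galactosyltransferase (-0.68), and TMEM38B, an ion channel of the endoplasmic reticulum (-0.16).

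Of 14 genes for procollagen processing and lysyl oxidase partners, 6 were higher, 4 lower and 4 did not pass, with a median of 0.02. TGM2, a transglutaminase, was higher by 0.65 on average (adjusted p = 2e-13), with 114 TPM in untreated cells and 124 TPM with TGFβ1 at 48 h. PCOLCE, an enhancer of procollagen C-proteinase, was lower by 0.14 (adjusted p = 0.0047). TLL1, a protease related to BMP1, was lower by 1.37 at levels of 1.99 TPM in untreated cells and 0.416 TPM with TGFβ1 at 48 h. The other genes lower on average were ADAMTS14 and FBLN5. ADAMTS14, at -0.04 on average, differed by 0.54 at 8 h (adjusted p = 0.003) and by -0.69 at 48 h (adjusted p = 1.4e-05). ADAMTS3, counted as higher at 0.07 on average, differed by -0.26 at 8 h (adjusted p = 0.0088) and by 0.27 at 48 h (adjusted p = 0.0058). BMP1, which cleaves procollagens and activates pro-lysyl oxidase, was higher by 0.98. ADAMTS14, FBLN5, ADAMTS3 and BMP1 were named after their values were seen.

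Among 11 collagens and elastin, 10 were tested, of which 6 were higher and 2 lower, with a median of 1.21. COL1A1 stood at 158 TPM in untreated cells and 2255 TPM with TGFβ1 at 48 h (mean log2 difference 2.72, adjusted p = 5.2e-17). COL4A1, COL5A1 and COL4A2 were higher by 1.84, 1.43 and 1.11. ELN, the elastin gene, was higher by 1.60, at 0.983 and 3.75 TPM at 48 h. COL1A2 and COL2A1 passed at means of 0.061 and 0.144 TPM only (1.31 and -1.79), and the other lower gene, COL5A2, named after its values were seen, differed by -0.11. COL1A1 therefore reached a high level while COL1A2, the gene of its usual partner chain, stayed near 0 in every library.

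Of 12 hypoxia responsive genes, listed because P4HA1, P4HA2, PLOD2 and LOX are known to respond to low oxygen, 2 were higher with TGFβ1, 8 lower and 2 did not pass, with a median of -0.24. CA9, a carbonic anhydrase, stood at 5.14 TPM in untreated cells and 0.886 TPM with TGFβ1 at 48 h (mean log2 difference -1.85, adjusted p = 7.7e-13). EGLN3, an oxygen-sensing prolyl hydroxylase, stood at 53.6 and 18.1 TPM (-1.25). The glycolytic enzymes LDHA and PGK1 were lower by 0.13 and 0.22. The higher genes, named after their values were seen, were the glucose transporter SLC2A1 (0.79) and ANKRD37 (0.27, adjusted p = 0.0070). When scaled to 4 reference genes, 4 of the list were higher and 5 lower.

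Over the 24 libraries, the genes whose log2(TPM + 1) followed LOX most closely, among 9111 others with a mean of at least 10 TPM, were ZNF185, E2F7 and TXNDC5, with Pearson's r of 0.973, 0.963 and 0.947. E2F7 averaged 20.2 TPM in untreated cells and 40.1 TPM with TGFβ1 at 48 h, TXNDC5 138 and 210 TPM, and ZNF185 23.1 and 36.4 TPM. For LOXL3, the only called gene with a lower mean, the closest were RASSF1, CFAP20 and METTL21A, with r of 0.776, 0.769 and 0.768 among 9112 genes. The points share arms, times and libraries, so r is a description.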

How the data were processed

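SK-MES-1 libraries (2 arms, 4 times, 3 replicates) were sequenced by the authors on an Illumina HiSeq and quantified with kallisto 0.43.0 against Ensembl release 79 transcripts of GRCh38, per the submitters' processing notes and the study's methods. Estimated counts were deposited by the authors per transcript, neither normalized nor whole. TPM values, also deposited by the authors, correct for effective transcript length and library size. The effective lengths in the deposited tables served only for length-scaled counts. Of 173259 transcripts, 155518 (89.8%) matched GENCODE release 44 and were summed per gene. They held 94.8 to 95.2% of counts, and the 17741 others were not used here.

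Gene counts were rounded, a gene needed 10 or more in 3 or more libraries, and groups were compared with limma 3.58.1 (voom, TMM factors from edgeR 4.0.16, 8 group means over all 24 libraries) in R 4.3.3. P-values were adjusted by Benjamini-Hochberg over all tested genes and called below 0.01. Standard errors and 95% intervals come from the same fit. Exact permutation tests used log2(TPM + 1). Alternatives included edgeR's quasi-likelihood test, DESeq2 1.42.0, other scalings and filters, a replicate block and leaving out each library. On simulated counts for the F-test between the arms over 17199 genes, 176 of 196 changed genes were recovered. Among those with a mean count of at least 100, 148 of 149 were recovered. Recovery was not counted by size of difference. For differences as small as those of most of the 10 genes, recovery was not tested. Promoter sequences and exon bases were read from RefSeq (GRCh38.p14) and GRCh38.

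The 10 genes and all gene lists were chosen with earlier results of these data known. Named from the other lists were genes that passed the F-test with a mean log2 difference of at least 1 in size and the 2 most abundant of each list, and transcripts with at least 10% of a gene's TPM in some group could be named. Counting error is small at these depths except for LOXL3. The labels describe biological triplicates but name no separate cultures, so p-values measure the spread between these samples. Some genes used for scaling and for the check of the TGFβ response are not reported here.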

Additional observations from a re-analysis of the deposited data

Results flagged for a closer look

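The difference between the arms changed with time for some of the genes, by the test of that change itself in limma voom (adjusted p below 0.01). Between 0 h and 8 h the log2 difference grew by 0.81 for LOX, by 0.73 for LOXL4 and by 0.47 for P4HA2. Between 8 h and 24 h it grew by 0.43 for LOX, by 0.65 for LOXL2, by 0.81 for LOXL4 and by 0.28 for P4HA2. The code in the deposited names changes between 8 h and 24 h too. Groups held 3 libraries, too few for a test of single outlying libraries.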

How the results depend on the processing

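The higher levels of LOX, LOXL4 and P4HA2 at 8, 24 and 48 h and of LOXL2 at 24 and 48 h kept their direction under every alternative run. Apart from leaving out libraries, 590 of 680 values kept direction and call, 18 lost a call, 47 gained one and 25 reversed, and the cause was not tested. Scaling to 4 reference genes moved the median of all genes to 0.335 at 24 h and 0.336 at 48 h, from -0.015 and -0.013 (log2), and HPRT1, which is among them, ranged from 47.8 to 174 TPM. With it 8 genes in place of 4 were called at 24 h (LOXL1, PLOD1 and P4HA1 gained at 0.654, 0.383 and 0.455), 8 in place of 6 at 48 h and 9 in place of 6 in the F-test, and values turned to 0.156 for LOXL3, 0.092 for PLOD2 and 0.301 for PLOD3 at 24 h, to 0.147 for PLOD2 and 0.291 for PLOD3 at 48 h, and to 0.092 for LOXL3, 0.133 for PLOD2 and 0.263 for PLOD3 averaged over times. Changes from 0 h to 48 h turned to 0.131 for P4HA1 and 0.028 for P4HA2 in untreated cells and to 0.243 for LOXL2 and 0.406 for LOXL3 with TGFβ1. Of the pathway lists, it gave 14 higher and 1 lower for modification and folding, 10 higher and 1 lower for processing and partners, 1 lower collagen, and 4 higher and 5 lower hypoxia genes.

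Values near 0 changed sign elsewhere. The PLOD3 average was 0.002 in edgeR and in DESeq2, 0.025 with length-scaled counts and after subtracting 0 h, and 0.013 without the replicate 2 libraries of 0 and 24 h. LOXL3 at 48 h was -0.008 on log2(TPM + 1), -0.016 on log2(TPM + 0.1), -0.072 with library totals, -0.03 with upper-quartile factors and -0.017 with 10 counts in every library, and its average after subtracting 0 h was 0.003. With library totals PLOD2 at 8 h was -0.016, PLOD1 at 24 h -0.064 (-0.025 with upper-quartile factors) and the P4HA1 average -0.019 (-0.022 after subtracting 0 h). The P4HA1 change in untreated cells was 0.028 on log2(TPM + 1), 0.029 on log2(TPM + 0.1), 0.003 with library totals and 0.0 without the replicate 2 libraries, where that of PLOD1 was -0.042.

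Counts moved as follows. With a limit of 2-fold, 0 genes passed at 8 h, 2 at 24 h, 3 at 48 h and 2 in the F-test. The change from 24 to 48 h was called for 1 gene in DESeq2 and 1 with 4 reference genes, in place of 0, and for 2 without the replicate 2 libraries, where 7 were called at 8 h in place of 4. The change from 8 to 24 h was called for 2 with length-scaled counts in place of 4. Lower collagens numbered 0 on log2(TPM + 1) and log2(TPM + 0.1), and 1 with length-scaled counts, 10 counts in every library or a mean of 1 TPM. Length-scaled counts gave 1 lower modification gene. Higher hypoxia genes numbered 1 with library totals, upper-quartile factors, no filter or without the replicate 2 libraries.

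Replicate numbers were shared by the arms, and same-numbered libraries correlated at 0.401, 0.517 and 0.122 at 0 h and at 0.285, 0.523 and 0.26 at 24 h, but at -0.015, -0.036 and 0.055 at 8 h and at 0.038, 0.041 and 0.221 at 48 h. Same-numbered libraries thus deviated together at 0 and 24 h and not at every time, and the labels name no shared source, so the block was not made the main design. With a replicate block the F-test called 8 genes in place of 6, beside 8092 of all 17453 tested genes in place of 7410. The change from 24 to 48 h was called for 1 in place of 0. The replicate block also called LOXL2 at 8 h (adjusted p = 0.0025), PLOD2 at 24 h (adjusted p = 0.0083) and the LOXL1 change in untreated cells (-0.46, adjusted p = 0.0063). A block by number and time, and the fit without replicate 2 libraries, were added after the data were seen. With that block the F-test called 9 genes, beside 9967 of all 17453 tested genes. The changes from 0 to 8 h and from 24 to 48 h were called for 5 and 3 genes, with no share over all genes counted. In that block the PLOD3 average was 0.0 and the untreated changes were -0.123 for PLOD1 and 0.113 for P4HA1.

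Leaving out each library in turn gave 3 to 5 genes called at 8 h, 4 to 5 at 24 h and 5 to 6 at 48 h. It gave 5 to 8 in the F-test, beside 6756 to 8127 of all tested genes. It gave 0 to 2 for the change from 24 to 48 h (1 without TGFβ1 0 h replicate 2, 2 without TGFβ1 24 h replicate 1) and 1 to 2 higher hypoxia genes. Ranges that crossed 0 were -0.065 to 0.072 for LOXL3 at 48 h, -0.033 to 0.143 for PLOD1 and -0.15 to 0.094 for PLOD3 at 24 h, and -0.035 to 0.047 for the PLOD3 average. For changes from 0 h to 48 h they were -0.009 to 0.177 for P4HA1 with TGFβ1, and -0.119 to 0.001 for P4HA1 and -0.041 to 0.081 for PLOD1 in untreated cells. The sum over all deposited transcripts of a gene was not run, as unmatched transcripts carry no gene. Depth limits LOXL3 most.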
